A study of Mus musculus with 2 samples.

Results

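Protein-coding genes whose promoters hold few CpG dinucleotides but lay in open chromatin in the mouse ovary are described here. A gene counted as CpG-poor when its highest ratio of observed to expected CpGs, over the 500 bp on each side of every annotated transcription start site (TSS), was below 0.4. It counted as open when a DNase peak lay within 500 bp of a TSS in both libraries, and genes with a TSS of another gene within 1 kb were left out. Of 21938 protein-coding genes on chromosomes 1 to 19, X and Y, 7471 (34.1%) were CpG-poor, 1233 of these were open in both libraries, and 1022 (4.66% of all) remained after 211 were left out for a neighbour. The members were chosen by the CpG ratio and the presence of peaks and ranked by the peak value, so shares of open genes and peak values are descriptions without a test. All values come from DNase-seq of ovaries of 36-day-old females of the hybrid strain B6CASTF1/J, which make up a single group of 2 libraries, replicate 1 and replicate 2, from differently numbered animals that share a donor entry in the labels. The ovary is bulk tissue, so a low promoter value in few cells and in many cells cannot be told apart, and fewer cells of a type and less accessibility per cell cannot be told apart either.

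DNase I cuts DNA where nucleosomes or other proteins do not shield it, and a peak marks a stretch cut more often than its surroundings. Within a peak, a footprint is a short run of bases cut less than its flanks, as happens where a bound protein shields them. Mammalian promoters fall broadly into CpG islands, which are unmethylated and open in nearly every cell type and serve mainly housekeeping and developmental genes, and CpG-poor promoters, which often serve tissue-restricted genes and are open mainly where the gene is used. In the ovary, granulosa cells, theca cells and luteal cells make steroid hormones and respond to gonadotropins.

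The 4 promoters with the highest mean peak values are shown first, because they head the ranking used here. Each line gives the 110 bases upstream of the open TSS on the strand of the gene, in mm10 (GRCm38), with bases inside a footprint of both libraries in capitals. None of these windows overlaps an annotated exon. The Tldc1 window holds 7 CpGs, the Plin3 window 6, the Gstm7 window 2 and the Cyp4f13 window 1.
Tldc1, chr8:119778417-119778526, minus strand: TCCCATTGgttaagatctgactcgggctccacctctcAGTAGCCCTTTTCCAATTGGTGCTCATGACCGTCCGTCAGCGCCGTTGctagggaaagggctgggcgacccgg
Cyp4f13, chr17:32947403-32947512, minus strand: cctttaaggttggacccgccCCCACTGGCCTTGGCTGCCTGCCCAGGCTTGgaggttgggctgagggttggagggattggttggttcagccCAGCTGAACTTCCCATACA
Plin3, chr17:56290512-56290621, minus strand: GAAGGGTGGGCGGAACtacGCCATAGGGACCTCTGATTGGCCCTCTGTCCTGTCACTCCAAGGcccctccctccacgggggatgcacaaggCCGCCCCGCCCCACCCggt
Gstm7, chr3:107931818-107931927, minus strand: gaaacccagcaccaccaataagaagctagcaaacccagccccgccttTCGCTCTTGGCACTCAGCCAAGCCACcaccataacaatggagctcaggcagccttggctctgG
The footprints of Tldc1 cover overlapping CCAAT boxes on opposite strands, and those of Plin3 cover a CCAAT box (ATTGG on this strand) and GC boxes (GGGCGG, or CCGCCC on the other strand).

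Promoters of genes of the ovary come next, drawn in the same way: Star (mitochondrial cholesterol import), Hsd17b1 (the last step of estradiol synthesis in granulosa cells) and Myh11 (smooth muscle myosin). The Star window holds 1 CpG, the Hsd17b1 window 3 and the Myh11 window 9.
Star, chr8:25806445-25806554, plus strand: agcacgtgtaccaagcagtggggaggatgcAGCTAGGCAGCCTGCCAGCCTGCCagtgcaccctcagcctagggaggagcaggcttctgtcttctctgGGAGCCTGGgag
Hsd17b1, chr11:101078301-101078410, plus strand: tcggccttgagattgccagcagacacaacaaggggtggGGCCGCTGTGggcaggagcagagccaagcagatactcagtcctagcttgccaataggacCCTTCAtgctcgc
Myh11, chr16:14291373-14291482, minus strand: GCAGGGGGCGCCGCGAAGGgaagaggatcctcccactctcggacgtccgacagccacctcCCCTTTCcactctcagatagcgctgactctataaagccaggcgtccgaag
The Star window holds no match to the CCAAT box, the GC box or the NR5A motif, the Hsd17b1 window holds a CCAAT box outside the capitals, and the Myh11 window holds a TATA box outside them.

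Examples of footprinted TATA boxes and NR5A motifs are shown because the first helps to place the start of transcription and the second is bound by regulators of steroid synthesis. In the next lines, which give 60 bases upstream of the TSS, capitals mark a TATA box (TATAAA) or the NR5A motif (AAGGTCA, read on either strand) of which at least 50% of the bases lay in a footprint of both libraries. Acy3 (an aminoacylase) and Serpinb1a (an inhibitor of neutrophil proteases) had the TATA box, and Aldh3b1 (an aldehyde dehydrogenase) and Phyhd1 (a dioxygenase) had the NR5A motif, the site of steroidogenic factor 1 and its relative LRH-1. They are among the members of highest mean value with such a match.
Acy3, chr19:3986510-3986569, plus strand: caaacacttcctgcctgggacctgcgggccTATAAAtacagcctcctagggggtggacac
Serpinb1a, chr13:32851186-32851245, minus strand: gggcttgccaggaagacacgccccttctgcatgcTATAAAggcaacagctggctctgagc
Aldh3b1, chr19:3929809-3929868, minus strand: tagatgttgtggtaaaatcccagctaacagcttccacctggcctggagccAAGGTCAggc
Phyhd1, chr2:30266661-30266720, plus strand: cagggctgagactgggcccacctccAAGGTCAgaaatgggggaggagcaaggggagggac

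H2-Aa, which encodes the alpha chain of a class II antigen-presenting molecule, is shown because a CRE core (TGACGT) and a CCAAT box lay together in a single footprint of both libraries. It was chosen after its values were seen. The capitals mark the motifs, and the footprint runs from 81 to 43 bases upstream of the TSS.
H2-Aa, chr17:34287824-34287933, minus strand: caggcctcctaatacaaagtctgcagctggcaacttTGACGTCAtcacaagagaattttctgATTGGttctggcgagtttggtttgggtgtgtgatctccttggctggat

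The last set shows a sequence that was footprinted at nearly every match, the motif of CTCF, an insulator and loop-anchoring protein. Each line gives 30 bases read on the strand of the match, with the 12 matched bases in capitals, for the 6 members of highest mean value whose 30 bases overlap no exon. At Hsd17b14, Fbp2, Mroh7 and Myo7a the open TSS is that of a transcript inside the gene that is not annotated as protein-coding.
Hsd17b14, chr7:45555976-45556005, plus strand: gggtggtggCCAGCAGAGGGCaccagagat
Tmem211, chr5:113226744-113226773, minus strand: caggatgcgCCAGCAGAGGGCgcgctcact
Fbp2, chr13:62856355-62856384, minus strand: cgcacatggCCAGTAGGTGGCaggctgtac
Mroh7, chr4:106708604-106708633, minus strand: caagtcgtgCCAGCAGAGGGCggtggtgtc
Aox3, chr1:58112978-58113007, minus strand: aggcgctagCCACTAGAGGGCgttttccaa
Myo7a, chr7:98103420-98103449, plus strand: tctctgcagCCACCAGATGGCagacgaggg

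Few CpG-poor promoters were open. Without a neighbouring TSS, 15.0% of 6825 CpG-poor genes had a peak in both libraries, against 90.5% of 9318 genes at a CpG ratio of 0.4 or more, called CpG-rich here, and 66.7% of all protein-coding genes. The share followed the CpG ratio over its whole range. It was 1.84% below a ratio of 0.1, 5.18% from 0.1 to 0.2, 17.8% from 0.2 to 0.3 and 39.6% from 0.3 to 0.4, and it continued without a break to 65.1% from 0.4 to 0.5 and 98.1% at 0.9 or more. The threshold of 0.4 therefore cuts a gradient. Just inside it lay Ggta1, Zfp759, Cpne4, Atp8b5 and Hoxb2, at ratios of 0.3993 to 0.3995 and mean values of 0.901 to 4.16, and just outside it lay Rbpjl, Cplx3, Rsph4a, Lrrc8e and 2410137M14Rik, at ratios of 0.40 to 0.4012 and mean values of 0.418 to 2.77. The ranges of both sets overlap.

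**Figure D1:**
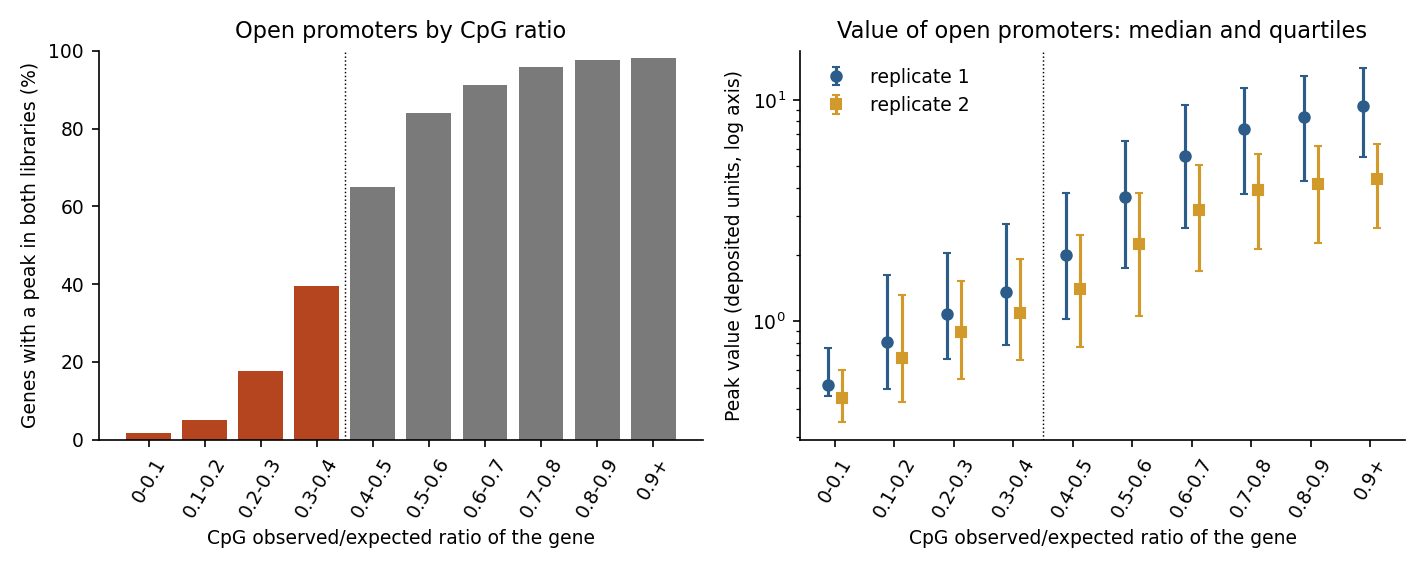
Left, the share of protein-coding genes with a promoter peak in both ovary libraries, in steps of the CpG ratio (red, below 0.4; grey, at 0.4 or more; dotted line, 0.4). Right, the promoter peak value of the open genes in each library on a log axis (points, medians; bars, quartiles); both the share and the value climb from the left to the right step.

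The peak value is the deposited signal of the highest peak within 500 bp of a TSS. How it was scaled is not stated in the labels or headers, and every value was a whole multiple of 0.00651 in replicate 1 and 0.00654 in replicate 2, within 0.05 of a step. CpG-poor open promoters had a median value of 1.17 in replicate 1 and 0.946 in replicate 2. Open promoters at 0.4 or more had medians of 6.41 in replicate 1 and 3.42 in replicate 2. The quartiles of the CpG-poor promoters, 0.672 and 2.25 in replicate 1, lay below the lower quartile of 2.87 of the others. A small group reached the level of the CpG-rich promoters, with 70 members at 4 to 8 and 22 at 8 or more in replicate 1.

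The 25 highest members had mean values, over both libraries, from 5.83 to 14.9. Tldc1, a member of the TLDc domain family, had 18.4 in replicate 1 and 11.5 in replicate 2. Cyp4f13, a fatty acid hydroxylase of the cytochrome P450 family, had 16.3 and 10.03 in the same order, and Plin3, a coat protein of lipid droplets, had 15.8 and 8.64. Gstm7, a glutathione transferase, had 15.3 and 8.40, and Fggy, a carbohydrate kinase, had 13.3 and 7.63. Values in replicate 1 were above those in replicate 2 at all 25. Further down this group stood Hsd3b7 (9.91 and 6.22), a steroid dehydrogenase of bile acid synthesis, Aldh3b1 (10.6 and 5.49), Pipox (9.39 and 5.68), a peroxisomal oxidase of sarcosine and pipecolate, and Elovl1 (9.95 and 3.84), an elongase of long fatty acids. Mgmt, which removes alkyl groups from guanine, had 9.74 and 4.83, and Pold4, a small subunit of DNA polymerase delta, had 9.997 and 6.33.

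Also among the 25 was Il6, the cytokine interleukin 6, with 8.13 in replicate 1 and 4.27 in replicate 2. Il11ra1, a receptor chain for interleukin 11, had 8.34 and 3.89. Edn2, the endothelin that is known to contract the follicle wall at ovulation in mice, had 8.02 and 3.65. Angptl2, an angiopoietin-like glycoprotein, had 9.20 and 4.27, Layn, a hyaluronan receptor, had 8.38 and 3.85, and Serpinb9, the inhibitor of granzyme B, had 7.44 and 5.16. The rest were AI464131, BC029722, Sft2d3, 1700125H20Rik, Tpcn2 (a cation channel of endolysosomes), Fam198a, Ccdc9b and Syn3 (a synapsin), with mean values from 5.90 to 9.73. Sft2d3 is an edge case: its peak centre lay 534 bp downstream of the TSS in replicate 1 and 524 bp in replicate 2. At the other end, Gm14393, Cysltr1 (a leukotriene receptor) and Agtr1b (an angiotensin receptor) had mean values of 0.228, 0.228 and 0.209.

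CpG-poor genes of the hormone-producing cells had peak values across the range of the members. They are the smaller part of their lists, since 15 of 20 granulosa, 13 of 20 steroid synthesis, 7 of 12 luteal and 13 of 15 ovulation genes had a CpG ratio of 0.4 or more. The granulosa list held 4 CpG-poor genes without a neighbour and all 4 were open, beside the 15.0% of all such genes. Hsd17b1 had 3.41 in replicate 1 and 1.94 in replicate 2. Amh, the anti-Müllerian hormone of growing follicles, had 1.59 and 0.857. Cyp19a1, the aromatase, had 1.04 and 1.15, and Fshr, the receptor for follicle-stimulating hormone, had 0.632 and 0.491. Hsd17b1 stood above the other 3 in both libraries, with rank 148 of the 1022 members by mean value against rank 819 for Fshr, and Amh, Cyp19a1 and Fshr lay outside the shorter peak list of at least 1 library. The Cyp19a1 peak lay 564 bp downstream of a TSS in replicate 1 and 594 bp in replicate 2, and that TSS is of a retained-intron transcript inside the gene, not of a coding one.

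Steroid synthesis showed both states. Star had 3.804 in replicate 1 and 2.14 in replicate 2, Lhcgr, the receptor for luteinizing hormone, had 3.002 and 1.62, Cyp17a1, the enzyme of androgen synthesis in theca cells, had 2.28 and 1.35, and Cyp11a1, which cleaves the cholesterol side chain, had 1.06 and 0.779. The Cyp17a1 peak lay 420 bp downstream of the TSS of a retained-intron transcript in replicate 1 and 340 bp in replicate 2, and the Cyp11a1 peak lay at the starts of shorter transcripts inside the gene, not at its most upstream start. Hsd3b1, the dehydrogenase that forms progesterone, Akr1c18, which inactivates progesterone in mice, and Sult1e1, the estrogen sulfotransferase, were without a promoter peak in both libraries. This list thus had 4 open of 7, and the luteal list, which shares Star, Lhcgr, Cyp11a1, Akr1c18 and Hsd3b1 with it, had 3 of 5. Both CpG-poor genes of the ovulation list were open, Edn2 and Btc (betacellulin, an EGF-like growth factor), the second with 2.61 in replicate 1 and 1.91 in replicate 2.

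CpG-poor stroma and smooth muscle genes without a neighbour were open in 6 of 10 and 6 of 8 cases. The share of all such genes was 15.0%. Sparc, a matrix glycoprotein, had 2.83 in replicate 1 and 1.54 in replicate 2, and Col6a3, a chain of collagen VI, had 1.52 and 0.936. Dcn, the proteoglycan decorin, had 0.319 and 0.635, so here replicate 2 was the higher. Myh11 had 3.70 in replicate 1 and 1.96 in replicate 2, Myl9, a myosin light chain, had 2.27 and 0.949, Lmod1, an actin nucleator, had 1.53 and 1.00, and Acta2, smooth muscle actin, had 0.736 and 0.471. Mfap5 of the stroma list and Actg2 of the muscle list had no peak. CpG-poor endothelial genes without a neighbour numbered 6. Of these only Cdh5, the endothelial cadherin, was open in both libraries (1.19 in replicate 1 and 0.955 in replicate 2). Another 4 had a peak in 1 library alone and Robo4 had none. Over all gene lists, each gene counted once, 45 of 136 CpG-poor genes (33.1%) were open, and 24 of the 45 were in both shorter peak lists.

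On the lists of other tissues, other cell types and inflammation, only CpG-poor genes without a neighbour were counted, beside the 15.0% of all such genes. They ranged from 0 of 7 on the keratinocyte list to 2 of 3 on the ciliated cell list. The oocyte list had Mos (0.560 in replicate 1 and 0.438 in replicate 2), the kinase of meiotic arrest, as its only open gene of 11, with a peak centre 574 bp downstream of the TSS in replicate 1 and 503 bp in replicate 2; Bmp15, H1foo, the zona genes Zp1 and Zp2 and 5 more had no peak. The hepatocyte list had Pck1 and Cyp2e1 of 15, with Alb and Ambp among the 12 without a peak, and the lymphocyte list had Cd2 of 11, at a retained-intron transcript. The myeloid list had Cd14, Cd74 and Cd68 of 16, with mean values of 1.11, 0.836 and 0.761, while Adgre1, Aif1 and the C1q genes had no peak. The Cd14 peak centre lay 578 bp downstream of the TSS in replicate 1 and 558 bp in replicate 2. Keratinocyte and erythroid lists had 0 of 7 each. Adipocyte genes reached 4 of 8 (Plin1, Plin4, Cidec and Retn), with Plin1 at 2.89 in replicate 1 and 1.58 in replicate 2 and Adipoq and Cfd without a peak. The Plin1 peak centre lay 464 bp downstream of a TSS in replicate 1 and 454 bp in replicate 2. The inflammation list had 5 of 9, Il6, Ccl2, Il33, Tnf and Ccl7, of which Ccl2, a monocyte chemokine, had 1.69 in replicate 1 and 1.22 in replicate 2. The skeletal muscle list had Pygm and Acta1 of 7, with the Acta1 peak centre 408 bp downstream of a TSS in replicate 1 and 395 bp in replicate 2. The surface epithelium list had Msln (at a transcript not annotated as coding) and Upk1b of 5. The ciliated cell list had Pax8 and Ovgp1 of 3, while Sntn had no peak. At Ovgp1 the peaks did not both lie within 500 bp of the TSS of a coding transcript, and they shared no footprint base. A list name does not show which cells held the open promoter. The part of the mix of cell types in these counts was not tested.

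**Figure D2:**
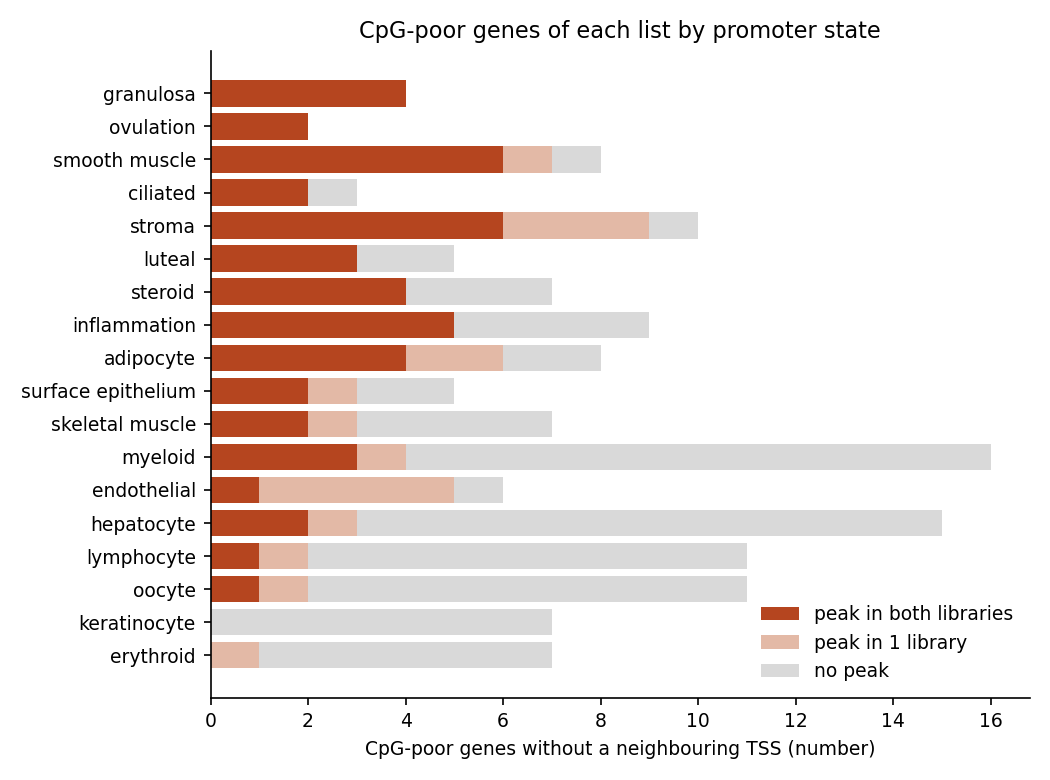
CpG-poor genes without a neighbouring TSS in each gene list, by promoter state (dark red, peak in both libraries; light red, peak in 1 library; grey, no peak). The granulosa and ovulation lists are all dark, and the keratinocyte and erythroid lists hold no dark part.

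Gene families ranged widely. Only their CpG-poor genes without a neighbour were counted here. Of 1098 olfactory receptor genes 14 (1.28%) were open, and of 323 vomeronasal and formyl peptide receptor genes 0 were open, with 2 that had a peak in 1 library. The prolactin family (24 genes) and the major urinary proteins (18 genes) had no open member. Olfactory, vomeronasal and formyl peptide receptor genes are part of the 6825 behind the 15.0%. Cytochrome P450 genes were open in 17 of 73 cases (23.3%), with Cyp4f13 and Cyp4f16 the highest. Solute carriers had 32 of 94 (34.0%), led by Slc27a6 and Slc25a45, serpins had 10 of 51, led by Serpinb9 and Serpinb1a, and interleukins with their receptors had 14 of 49, led by Il6 and Il11ra1. Zinc finger genes of the Zfp symbols had 28 of 63 (44.4%), led by Zfp605 and Zfp607b, and collagens had 7 of 13, led by Col22a1 and Col6a5. CpG-rich genes, with or without a neighbour, are outside these counts. Of them 248 of 269 solute carriers, 308 of 320 Zfp genes and 27 of 29 collagens were open. Members of such families can be near copies of each other, and the submitters' treatment of reads that map to several places is not stated there either.

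Peaks at open CpG-poor promoters lay further from the nearest annotated TSS than those at CpG-rich ones. Genes had a median of 3 annotated TSSs among members and 4 at 0.4 or more, and the sets differ in peak value and width. The part of these differences was not tested. The median distance of the peak centre from the nearest TSS, without its sign, was 69.3 bp in replicate 1 and 72.5 bp in replicate 2, against 47.5 bp and 57.5 bp at open promoters at 0.4 or more. The peak covered a TSS at 61.4% of the CpG-poor promoters in replicate 1 and 63.2% in replicate 2, against 80.8% and 80.9% at 0.4 or more. With its sign the median was -13 bp in replicate 1 and -14.5 bp in replicate 2, slightly upstream, against -23.5 and -25.5 bp at 0.4 or more. This direction depended on the choice of TSS: with the most upstream TSS of each gene alone, the median of the CpG-poor promoters over both libraries was 9.5 bp, downstream. The tails were longer at CpG-poor promoters, with 5th and 95th percentiles of -387 and 427 bp in replicate 1, against -230 and 248 bp at 0.4 or more. Both highest peaks lay within 500 bp of the TSS of a protein-coding transcript at 928 members (90.8%), against 96.8% at 0.4 or more.

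**Figure D3:**
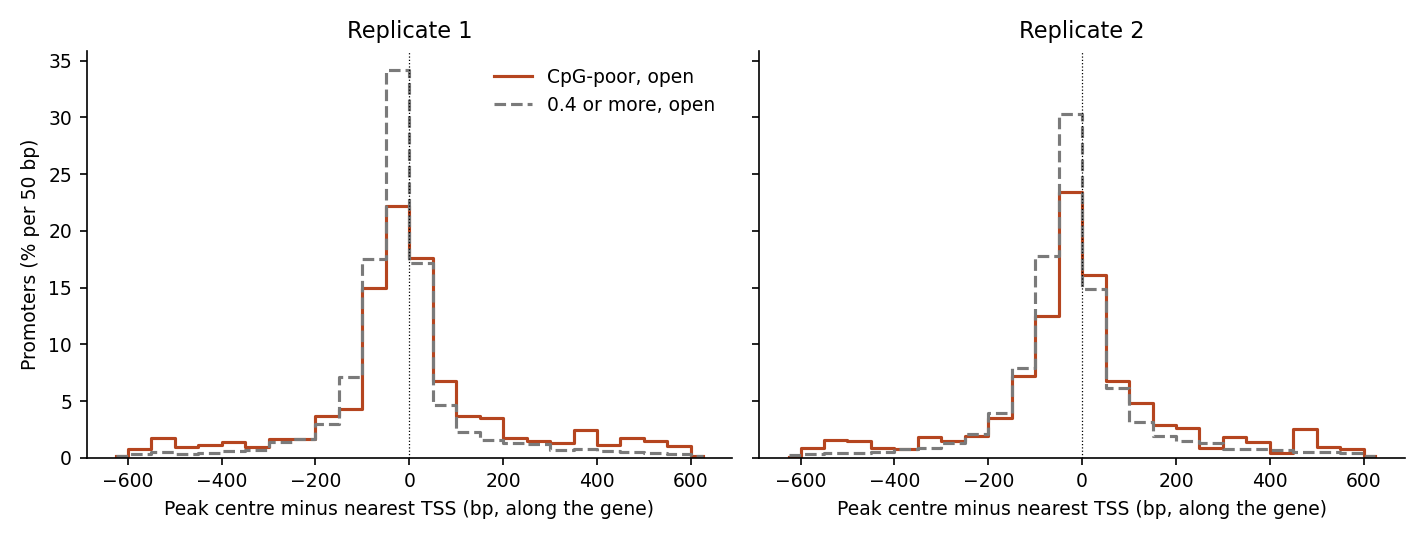
Share of promoters per 50 bp step of the distance from the nearest TSS to the peak centre, along the gene, in each library (solid red, CpG-poor open promoters; dashed grey, open promoters at 0.4 or more). Both peak just upstream of the TSS, and the dashed line is the higher there in both libraries.

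The peaks themselves were narrow. Their median width was 200 bp in replicate 1 and 220 bp in replicate 2, against 220 and 260 bp at 0.4 or more. Among promoters with a value of 1 to 2 the CpG-poor ones had a median of 220 bp in replicate 1 and 240 bp in replicate 2, against 260 and 320 bp, so the difference was also present at similar values. The peaks of both libraries overlapped at 975 members (95.4%). Within the peak the median CpG ratio was 0.312, below 0.4 at 707 members (69.2%) and 0.6 or more at 45, and the median GC content was 56.0%. Some of the highest members had such CpG-rich peaks: Tldc1 (0.675), Sft2d3 (0.980), Mgmt (0.612), 1700125H20Rik (0.619) and Syn3 (0.619). The rest of the 25 highest lay below 0.6. From the class of highest to that of lowest mean value, the median ratio of the peak fell from 0.357 to 0.265. Over 50% of the peak was repeat-masked at only 6 members.

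Footprints were common. A footprint lay inside the promoter peak at 93.8% of members in replicate 1 and 90.8% in replicate 2, against 98.9% and 98.0% at 0.4 or more, and bases footprinted in both libraries occurred at 69.8%, against 90.7%. This share followed the peak value. It was 96.9% among the 256 members with the highest mean values, 89.1% and 67.8% among the next 256 and 255, and 25.1% among the lowest 255. Among members with a value of 1 or more in replicate 1, every peak held a footprint in that library. At values of 0.5 to 1 the share with a footprint was close to that at 0.4 or more. It was 92.1% against 92.0% in replicate 1 and 93.1% against 93.7% in replicate 2. Below a value of 0.5 it was lower, at 70.2% against 80.0% in replicate 1 and 65.5% against 73.0% in replicate 2. At weak peaks, missing footprints and too few cuts to find one cannot be told apart.

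Motif matches were counted between 250 bases upstream and 50 bases downstream of the open TSS, on both strands except for the TATA box, and for genes without a peak at the TSS with the most transcripts. The windows differ in base composition, with a median GC content of 53.5% at CpG-poor open promoters, 44.2% at CpG-poor genes without a peak and 62.5% at open promoters at 0.4 or more, and its part in the shares was not tested. The GC box (GGGCGG), bound by SP and KLF factors, was present at 278 members (27.2%, Clopper-Pearson 95% interval 24.5 to 30.04%, for counting error only), against 5.39% of CpG-poor genes without a peak, 70.9% of open promoters at 0.4 or more and 48.5% of all. The ETS motif (CCGGAA) was at 7.44%, against 3.18%, 24.9% and 19.5%. Both stand between the other sets. Other motifs were above both: 24.7% of members held the E-box CAGCTG, against 15.6% of the CpG-poor genes without a peak and 15.2% of open promoters at 0.4 or more. The PU.1 motif (GAGGAAG) was at 18.1%, against 13.9% and 12.9%. The TEAD motif (GGAATG) was at 19.1%, against 16.0% and 11.3%. The CTCF motif was above both as well. The KLF motif was at 9.59%, against 8.25% and 8.17%, and its interval, 7.85 to 11.6%, includes both. The MEF2 motif was at 5.09%, against 4.82% and 2.57%, and its interval, 3.82 to 6.62%, includes the share without a peak.

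Several motifs rich in A and T had lower shares at CpG-poor promoters with a peak than at those without. The TATA box, started 40 to 20 bases upstream of the TSS, was at 32 members (3.13%), against 6.06% without a peak and 0.960% at 0.4 or more, and 2.37% of all. The GATA motif (AGATAA) was at 11.7%, against 18.1% and 4.96%. The NR5A motif (AAGGTCA) was at 5.48%, against 6.20% and 2.37%. The interval of the members, 4.17 to 7.06%, includes the share without a peak. In a shorter window, of 150 bp in total centred on the peak, 3.03% of members held it. The CCAAT box was at 34.6%, against 41.3% and 36.7%.

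CTCF motif matches had the widest relative gap of the motifs held by at least 5 members. They lay at 25 members (2.45%, interval 1.59 to 3.59%), against 3 of 5416 CpG-poor genes without a peak (0.0554%), 1.11% of open promoters at 0.4 or more and 0.770% of all. In the same 4 classes of mean value, from high to low, the share was 6.64, 2.34, 0.784 and 0%. A match to a factor's motif in these windows does not show that the factor is bound. With the TSSs of protein-coding transcripts alone the share was 1.69%, and with the TSS of the most transcripts it was 1.27%. In the shorter window, of 150 bp in total centred on the peak, it was 4.01%.

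**Figure D4:**
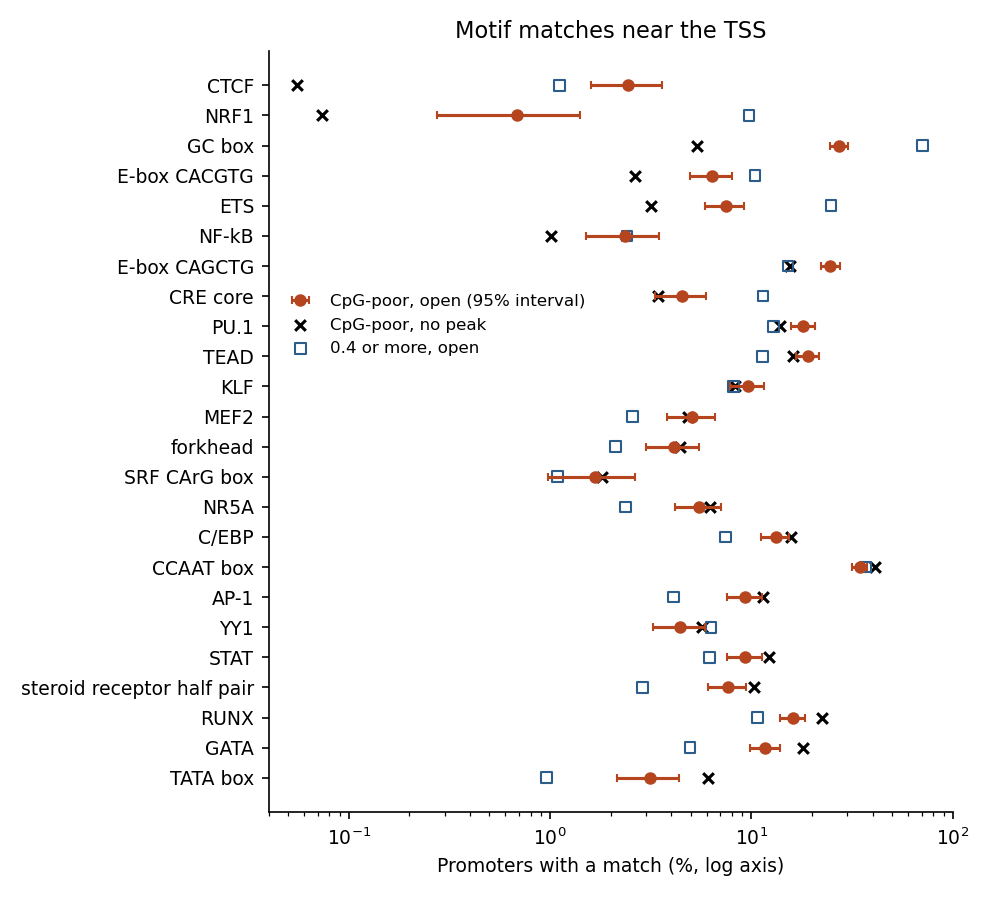
Share of promoters with a match to each motif that at least 5 members held, on a log axis, in order of the ratio between CpG-poor open promoters (red, with exact 95% binomial intervals) and CpG-poor genes without a peak (crosses); squares show open promoters at 0.4 or more. CTCF has the widest gap between red and cross, at 2.45% and 0.0554%, and the TATA box, at 3.13% and 6.06%, stands at the bottom.

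The share of matches inside footprints differed between motifs. The motifs also differed in the peak value of their promoters, and the part of peak value in these shares was not tested. From the highest to the lowest class of mean value, CTCF matches fell from 6.64 to 0% of members. GATA matches rose from 8.20 to 14.9%. Footprint bases of both libraries occurred at 96.9% of members in the highest class and 25.1% in the lowest. Over all bases where the peaks of both libraries overlapped, 9.41% lay in a footprint of both. Of 21 CTCF matches in both peaks 20 had at least 50% of their bases in such a footprint, 19 of them with all 12, and of 5 NRF1 matches all 5 did. The CRE core followed with 21 of 41, the GC box with 96 of 247 (38.9%), the TATA box with 5 of 17 and the E-box CACGTG with 9 of 32. CCAAT boxes had 34 of 201 (16.9%), among them those of Tldc1, Plin3, Fggy and H2-Aa. NR5A matches had 4 of 21, at Aldh3b1, Phyhd1, Aqp7 and Tbxa2r. For GATA the count was 1 of 31 and for the forkhead motif (GTAAACA) 0 of 17. A palindrome such as TGACGTCA counts as a pair of overlapping matches of the CRE core.

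The libraries differed in level, and CpG-poor promoters shared in this less. Replicate 1 was the higher at 830 members (81.2%), with a median log2 ratio of replicate 1 over replicate 2 of 0.41, against 0.91 at open promoters at 0.4 or more and 0.88 at all 14631 open coding genes. Relative to that last median the members stood at -0.47 and 102 of them (9.98%) lay above it, against 52.8% at 0.4 or more. The difference was present within classes of value: among promoters of 2 to 4 in replicate 1 the centred median was -0.31 at CpG-poor and -0.13 at CpG-rich ones. Centred on promoters of the same value decile the members had -0.19 and on those of the same GC content decile -0.21. With 1 library per animal number, animal and library preparation cannot be told apart, and no test was run.

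Single members departed from this in both directions. A630001G21Rik, with 0.573 in replicate 1 and 1.95 in replicate 2, had the lowest centred log2 ratio, -2.65, but its peaks of the 2 libraries did not overlap. Cldn8, a tight junction protein, had 0.195 and 0.510, Anxa1, a phospholipid-binding protein, had 0.287 and 0.7198, C1s1, a complement protease, had 0.573 and 1.30, and Gbp2, an interferon-induced GTPase, had 0.482 and 1.07. H2-Aa, among the class II genes, had 2.13 in replicate 1 and 3.08 in replicate 2 (centred log2 ratio -1.41), and Cd74, the invariant chain of the class II complex, had 0.703 and 0.969 (-1.34). H2-Ab1 had 2.85 and 1.83, but its highest peaks lay at different TSSs in the 2 libraries. On the high side stood Fjx1 (1.25 in replicate 1 and 0.438 in replicate 2, centred log2 ratio 0.63), Elovl1, Cd40 (1.62 and 0.648), a receptor of the TNF family, Itih5 and Sh2d4a. The Fjx1 peak centre lay 598 bp downstream of the nearest TSS in replicate 1 and 228 bp in replicate 2, and its peaks shared no footprint base.

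**Figure D5:**
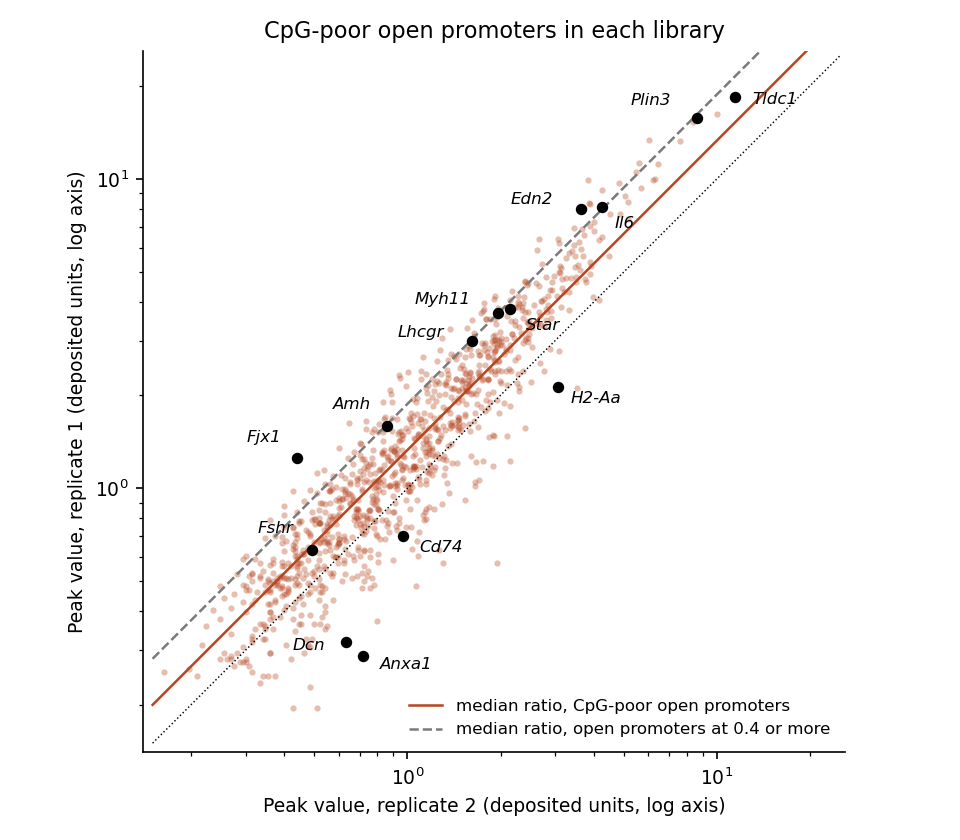
Promoter peak value of the 1022 CpG-poor open promoters in replicate 1 (y axis) and replicate 2 (x axis), both log axes; each point is a gene and named genes are black. The dotted line marks equal values, the solid line the median ratio of these promoters (log2 0.41) and the dashed line that of open promoters at 0.4 or more (log2 0.91); H2-Aa, Cd74, Dcn and Anxa1 lie below the dotted line.

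The surroundings of these genes were examined through distal peaks, shared by both libraries, over 1 kb from every TSS and counted for the coding gene with the nearest TSS. Members had a median of 1 such peak (mean 2.27) and 68.3% had at least 1, and with the shorter peak lists the mean was 1.27. CpG-poor genes without a promoter peak had a median of 0 (mean 0.854) and 33.1%, open genes at 0.4 or more had a median of 2 (mean 3.54) and 74.4%, and all genes had 58.2%. Gene length differs between these sets, with medians of 16.0 kb for members, 6.90 kb for CpG-poor genes without a peak and 28.0 kb at 0.4 or more, and its part was not tested. Cdh5 had 20 distal peaks, Fggy 16, Col6a3 15, Mgmt 13 and Lhcgr 11, while Plin3, Cyp4f13, Hsd3b7 and Hsd17b1 had 0. In the 4 classes of promoter value, from high to low, the mean count was 2.37, 2.30, 2.42 and 2.01, with little change between classes.

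Most members had no other member within 100 kb. Within 100 kb of another member lay 256 of the 1022 (25%), against 72.8% of CpG-poor genes without a peak and 67.2% of open genes at 0.4 or more; the sets differ in number, so these shares are not on the same footing. The members formed 20 chains of 3 or more genes. The longest had 6 genes on chromosome 2 (Gm14322, Gm14325, Gm14327, Gm14326, Zfp971 and Zfp931), and the next had 5 on chromosome 6, which join Clstn3 to the complement genes C1rl, C1ra, C1s1 and C1rb. Chains of 4 joined Gimap8, Gimap9 and Gimap5 with Rarres2 on chromosome 6, 4 genes of the Cyp4f group on chromosome 17, and Aldh3b1, Acy3, Gstp2 and Gstp3 on chromosome 19. The X chromosome held 4.11% of the members, against 6.54% of CpG-poor genes without a peak and 4.32% of all.

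The lower edge of the set was examined next. Of the CpG-poor genes without a neighbour 387 had a peak in 1 library alone, 194 in replicate 1 with a median value of 0.446 and 193 in replicate 2 with 0.373, both well under the medians of the members. The highest of them were Tctex1d4, Emilin1, Smim24 and Tagln in replicate 1 (1.25 to 1.84) and Akr1cl and Cideb in replicate 2 (1.46 and 1.14). The deposited lists of bases with a false discovery rate (q-value) below 0.05 were also read: within 500 bp of a TSS 56 (1.03%) of the 5416 CpG-poor genes without a peak had a listed base in replicate 1 and 59 (1.09%) in replicate 2, and 15 had one in both, while all 1022 members did. At 719 members (70.4%) the lowest q was 0.001 or less in both libraries. The peaks and the q-values come from the same reads, so the second is no independent measure. In the shorter peak lists of both libraries 698 members (68.3%) were still open, against 95.4% of open genes at 0.4 or more.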

How the data were processed

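DNase-seq of ovary was available for 2 libraries, replicate 1 and replicate 2. Per the file headers, peaks, footprints and cut-rate statistics were made by the authors from the filtered alignments of each library alone on mm10; callers, thresholds and read totals are not stated there or in the labels, so depth is unknown. The deposited peak lists give a signal value per peak (column 7, scaling not given), and the list with more lines was used, with 109169 peaks in replicate 1 and 114462 in replicate 2, against 66549 and 68552 in the shorter lists. The deposited footprints carry a score of 0.01 in every line, so only their positions were used. The deposited cut-rate files list q-values below 0.05.

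TSSs came from GENCODE release M21 on GRCm38, sequence from the GRCm38 FASTA. That FASTA is the reference of a single strain. CpG ratios, motif matches and the sequences shown therefore leave out sequence differences on the other parental genome of the hybrid. The part of such differences in the alignments was not tested. All annotated TSSs of a gene counted. An overlap of 1 bp counted. Python 3.11.15, numpy 2.4.6, scipy 1.17.1, matplotlib 3.10.9 and bedtools 2.31.1 were used, and the rule, distances and motif search were checked on simulated data. No test was run, since a single group of 2 libraries has no contrast and genes are not replicates of it. The labels do not say that the libraries come from separate mice beyond their numbers.

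The members and the gene lists were chosen with earlier results of these data known. Named genes are the 25 of highest mean value, up to 4 per list and 2 per family, 5 at each end of the centred library ratio, 5 on each side of the CpG threshold, the 3 lowest, and up to 2 unopened genes per list in alphabetical order; further genes named from these tables were chosen after their values were seen. A gene that these rules would name is not reported here.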

Additional observations from a re-analysis of the deposited data

How the results depend on the processing

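The number of open CpG-poor promoters stayed within 1.5 times of 1022 under each reach, peak list, TSS and neighbour setting tried, and moved with the CpG threshold, to 488 below 0.3 and 1726 below 0.5. Without replicate 1 or replicate 2 it was 1215 to 1216. With TSSs of protein-coding transcripts alone, a setting added after the data were seen, 1003 genes were open, 950 of them shared. The median value, averaged over the libraries, was 1.06; it was 1.29 below a CpG ratio of 0.5, 1.51 in the shorter peak list and 0.792 to 0.983 without a replicate. The median distance from the TSS, -13.8 bp, was -17.3 bp below 0.3, -9 bp below 0.5, -16.5 bp in the shorter list, -15.5 bp with neighbours kept, -9.5 bp with coding TSSs, -14.5 to -8.5 bp without a replicate, and turned to 9.5 bp with the most upstream TSS alone. The share with a footprint, 92.3%, was 90.0% below 0.3, 97.5% in the shorter list and 85.9 to 89.5% without a replicate. The GC box share, 27.2%, was 20.1% below 0.3, 37.1% below 0.5 and 20.8% within 150 bp around the peak centre; in that window NR5A had 3.03% and CTCF 4.01%, and CTCF had 1.27% at the TSS with the most transcripts. Open list genes, 45, were 23 below 0.3 and 24 in the shorter list. The centred library ratio, -0.47, was -0.19 by value decile, -0.21 by GC decile and 0.41 when not centred, which changes its sign by construction. Distal peaks per member, 2.27, were 1.27 in the shorter list. The cause of these shifts was not tested. Of the results per motif and list, 72 values moved and 420 did not; 50 of the 72 went to a lower value. No paired analysis was possible because the libraries form a single group. Depth is unknown, so a promoter without a peak is not shown to be closed.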
